A study of Homo sapiens with 6 samples.

Results

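Day 5 of a chemical protocol on BJ cells, fibroblasts of an established line from normal human foreskin, was compared with day 2 of the same protocol. The 4 libraries, 2 per day, were taken by the day in their labels out of 6 in the series. All cells were wild type and had grown in DMEM with 10% fetal bovine serum to 80% density on poly-D-lysine. The day 2 group then spent 2 days in a neuronal induction medium with 10 µM forskolin. The day 5 group went through the same 2 days and spent 3 more in a neuronal maturation medium that again held 10 µM forskolin, and both media were renewed every 2 days. The labels name both groups FiNs and give their cell type as induced neuron, and they give the day 0 cells, which enter here through the shared estimate of spread and as context, as fibroblasts. With renewal every 2 days, the time since the last renewal of medium and drug may have differed between the groups. Medium and time changed together while the drug was kept, and no cells in these media without forskolin were analysed here. Medium, time and drug therefore cannot be told apart.

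Forskolin activates adenylyl cyclase and so raises cAMP. cAMP releases the catalytic subunits of protein kinase A, which phosphorylate CREB, a transcription factor that sits at the cAMP response element (CRE), and it also acts through the exchange factor EPAC. In fibroblasts cAMP is known to loosen the contractile actin cytoskeleton, and lasting stimulation induces phosphodiesterases and other genes that damp the pathway.

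Levels are given as CPM, counts per 1000000 after scaling by TMM factors, library by library. The log2 fold change is day 5 minus day 2, with its standard error (SE), from edgeR's quasi-likelihood test, and a gene was called at a Benjamini-Hochberg adjusted p under 0.05 over 16327 tested genes. Of these genes 5241 were called higher (32.1%) and 5505 lower (33.7%), or 65.8% in either direction. The counts given for each list below are to be read beside these shares. In 41.0% of the tested genes both day 5 libraries were above both day 2 libraries, and in 41.4% below both. Tested against a change of 2-fold with glmTreat, 1046 were higher (6.41%) and 1299 lower (7.96%). The tested genes had a median log2 fold change of 0.01, with the middle 50% of genes between -0.55 and 0.55. The day 2 libraries held 24944819 and 27941895 counts and the day 5 libraries 17599457 and 19306802, so that 3 counts were worth 0.125 and 0.112 CPM at day 2 but 0.180 and 0.164 CPM at day 5. The common coefficient of biological variation was 3.33%, so small changes passed the test. Whether a day's libraries stem from separate cultures is not in the labels, and the p-values therefore rest on a spread between libraries that may be technical. In these bulk libraries, fewer cells of a type and less RNA per cell cannot be told apart.

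**Figure D1:**
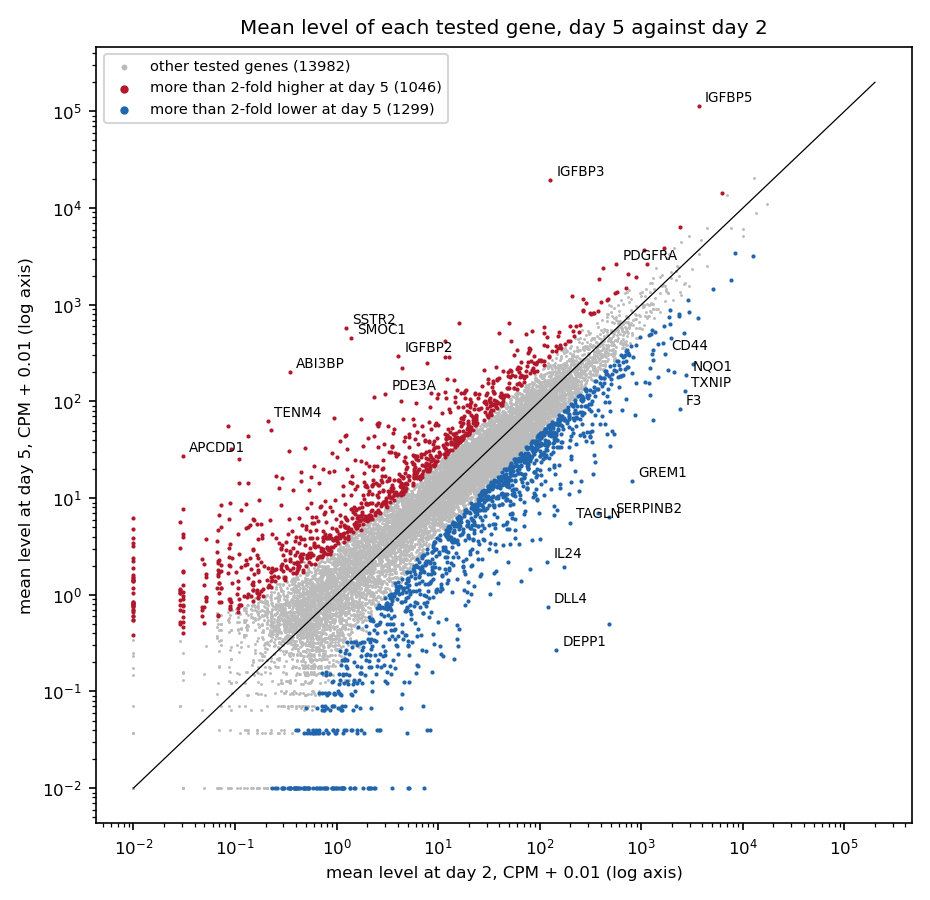
Mean level of each of the 16327 tested genes at day 2 (horizontal, CPM + 0.01, log axis) and day 5 (vertical, same scale), with genes more than 2-fold higher at day 5 in red (1046) and more than 2-fold lower in blue (1299) by glmTreat. The line marks equal levels; IGFBP5 and IGFBP3 stand above it at the high end, and DEPP1, DLL4 and SERPINB2 below it.

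The label of induced neuron was checked against 10 neuronal markers. STMN2, ELAVL3 and ELAVL4 had no counts in the 4 libraries, and only 4 of the 10 had enough counts to be tested. TUBB3, the tubulin isotype used to mark neurons, stood at 137 and 143 CPM at day 2 and at 87.2 and 87.7 CPM at day 5, and it fell by 0.68 on the log2 scale (edgeR adjusted p = 8.0e-11). MAP2, a dendritic microtubule protein, went from 3.998 and 4.87 CPM to 0.360 and 1.31 CPM. The day 5 libraries were below both day 2 libraries for each, as they were for 41.4% of all tested genes. The summed level of the 10 markers went from 149 and 156 CPM at day 2 to 106 and 111 CPM at day 5. NEUROD1 and NEUROG2, factors that drive neuronal fate, did not pass the filter on low counts, nor did RBFOX3 and DCX, markers of neuronal nuclei and of young neurons. SYN1, a synaptic vesicle protein, fell and SNAP25 rose. These values go against the label of neuron, and the groups are called by their day in what follows.

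The 10 fibroblast markers were all tested, and 5 were higher and 5 lower. Their summed level went from 15979 and 16197 CPM at day 2 to 29239 and 29655 CPM at day 5. Type I and III collagens and the PDGF receptors were on the higher side, and VIM, THY1, FAP, DCN and LUM on the lower side. The smooth muscle sum went from 141 and 143 CPM at day 2 to 142 and 143 CPM at day 5. The level sum hid changes of single markers, since of 5 tested 2 were higher and 2 lower. Among the lower, LMOD1 went from 18.3 to 1.63 CPM. Endothelial markers went from 80.8 and 80.5 CPM to 83.6 and 84.1 CPM with EMCN and CDH5 at 0, and Schwann or neural crest markers from 8.79 and 9.71 CPM to 14.9 and 16.7 CPM with S100B and FOXD3 at 0. The sum of the 6 macrophage markers went from 132 and 134 CPM at day 2 to 49.7 and 45.6 CPM at day 5, with C1QA at 0. That of 6 astrocyte markers went from 22.7 and 20.9 CPM to 5.94 and 5.57 CPM, with GJB6, ALDH1L1 and AQP4 at 0. Melanocyte markers went from 51.6 and 54.6 CPM to 19.9 and 19.4 CPM with TYR and TYRP1 at 0, and adipocyte markers from 52.1 and 51.5 CPM to 21.4 and 23.6 CPM with LEP and ADIPOQ at 0. Keratinocyte markers went from 17.6 and 19.5 CPM to 35.6 and 37.5 CPM with KRT5, KRT14, KRT1 and TP63 at 0, and T cell markers from 148 and 157 CPM to 182 and 194 CPM with CD3E, CD3D, CD2 and TRAC at 0. The part of these cell types in the changes of other genes was not tested.

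**Figure D2:**
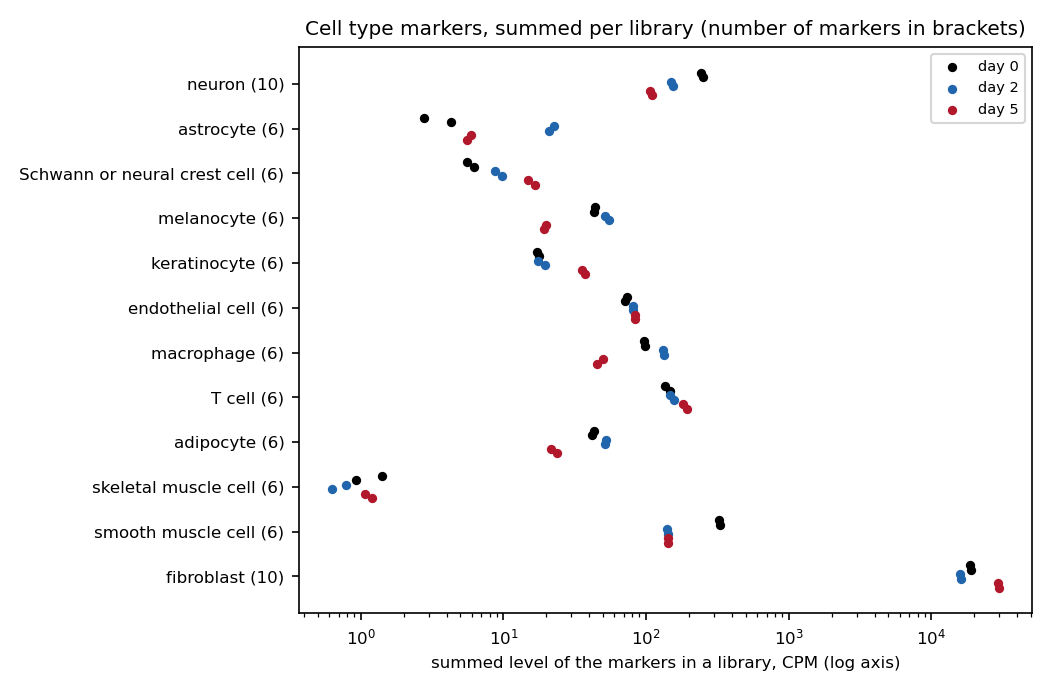
Summed level of the markers of 12 cell types in each library (CPM, log axis), with 2 libraries each of day 0 (black), day 2 (blue) and day 5 (red). The neuronal sum was lower on each later day, from 243 and 251 CPM at day 0 to 106 and 111 CPM at day 5, and the fibroblast sum was highest at day 5.

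Genes known to respond to cAMP and CREB were more often higher than lower at day 5, with forskolin at the same dose on both days. In this list, 22 of 35 tested genes were higher and 10 lower at day 5 (median 1.07) on the log2 scale, against 32.1% and 33.7% of all tested genes and their median of 0.01. More than 2-fold changes numbered 17 higher and 8 lower. NR4A1, an orphan nuclear receptor and early cAMP response gene, went from 47.02 and 50.1 CPM at day 2 to 195 and 204 CPM at day 5, or 2.04 ± 0.05 on the log2 scale (edgeR, adjusted p = 1.8e-15). Its relatives NR4A2 and NR4A3 rose from 91.1 to 242 CPM and from 2.06 to 21.4 CPM. All 3 receptors were higher in both day 5 libraries than in either day 2 library, as were 41.0% of all tested genes.

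AREG, a ligand of the EGF receptor, rose from 272 and 267 CPM to 879 and 879 CPM, and its neighbour EREG, a ligand of the same family, from 113 to 236 CPM. The MAP kinase phosphatase DUSP1 rose from 78.1 and 82.1 CPM to 347 and 345 CPM, or 2.11 ± 0.04 on the log2 scale (edgeR, adjusted p = 2.6e-18). PPARGC1A, a coactivator that drives mitochondrial genes, rose from 1.29 and 1.19 CPM to 44.1 and 45.3 CPM, and the small GTPase GEM from 73.3 to 499 CPM. CREM, whose products include a repressor of CREB sites, went from 18.03 and 17.4 CPM to 41.9 and 41.1 CPM. CGA, the common subunit of glycoprotein hormones, had no counts at day 2 and 79 over both libraries at day 5, at least 38.3-fold higher against a floor of 3 counts over the group. SIK1, a kinase that damps CREB coactivators, has a near-identical copy in the table, SIK1B. SIK1B went from 16.1 and 16.3 CPM to 637 and 654 CPM, and SIK1 held 0.167 and 0 CPM and then 1.08 and 3.66 CPM, so their split is uncertain, and the call of SIK1 was lost with DESeq2 (adjusted p = 0.10).

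Other members of the list went the other way. PTGS2, the inducible cyclooxygenase, fell from 651 and 647 CPM to 83.4 and 79.1 CPM, or -3.00 ± 0.03 on the log2 scale (edgeR, adjusted p = 9.0e-21). PDK4, which inhibits pyruvate dehydrogenase, fell from 2674 and 2645 CPM to 518 and 502 CPM, and CITED2, a coregulator of CBP and p300, from 337 and 320.5 CPM to 40.1 and 35.2 CPM. At day 0 the levels of PTGS2 and PDK4 were 27.5 and 67.98 CPM, so both were highest at day 2 among the 3 days. The stress factor ATF3, the small MAF protein MAFF and the G protein regulator RGS2 fell by 2.59, 2.72 and 2.09 on the log2 scale. STC1, a secreted hormone, changed by 0.10 ± 0.02, from 2287 to 2450.1 CPM, after 114 CPM at day 0.

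The RefSeq promoter held for each gene (GRCh38.p14) was searched on both strands for the full CRE, TGACGTCA. The window was 300 bases, from 250 before to 50 after its start, and other starts of a gene were not searched. The full CRE was found in 3.28% of 11257 promoters of tested genes. It was in 3.49% of those of genes more than 2-fold higher and in 0.863% of those more than 2-fold lower. Of the 30 promoters of the cAMP list that the table held, 5 had it. The shorter motif TGACG, which every full CRE contains, was in 34.0% of all promoters and in 18 of these 30. The 250 bases before the start are shown for all 5, so that site and change can be set side by side, with the CRE in capitals. CGA, DUSP1 and AREG rose, and MAFF and VGF fell.
CGA (chr6:87095107-87095356, minus strand): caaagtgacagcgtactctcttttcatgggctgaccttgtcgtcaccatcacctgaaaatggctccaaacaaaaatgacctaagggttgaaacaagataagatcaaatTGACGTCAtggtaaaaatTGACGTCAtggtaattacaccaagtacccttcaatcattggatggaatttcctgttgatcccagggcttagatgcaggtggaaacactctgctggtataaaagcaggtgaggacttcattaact
DUSP1 (chr5:172771196-172771445, minus strand): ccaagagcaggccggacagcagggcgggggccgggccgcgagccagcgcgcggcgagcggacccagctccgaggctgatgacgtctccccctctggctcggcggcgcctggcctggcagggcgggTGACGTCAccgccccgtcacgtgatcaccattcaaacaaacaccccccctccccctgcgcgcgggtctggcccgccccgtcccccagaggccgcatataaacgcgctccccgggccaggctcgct
AREG (chr4:74444886-74445135, plus strand): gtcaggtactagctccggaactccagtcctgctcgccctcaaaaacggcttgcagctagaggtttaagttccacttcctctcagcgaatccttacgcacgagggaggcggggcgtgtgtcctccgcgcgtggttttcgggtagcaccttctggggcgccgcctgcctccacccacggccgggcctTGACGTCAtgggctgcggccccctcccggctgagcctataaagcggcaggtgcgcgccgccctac
MAFF (chr22:38201744-38201993, plus strand): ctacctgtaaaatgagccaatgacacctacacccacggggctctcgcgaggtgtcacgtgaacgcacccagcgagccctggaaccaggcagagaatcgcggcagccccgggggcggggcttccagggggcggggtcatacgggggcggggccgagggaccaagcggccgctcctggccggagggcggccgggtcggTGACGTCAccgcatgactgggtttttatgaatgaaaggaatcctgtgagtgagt
VGF (chr7:101165570-101165819, minus strand): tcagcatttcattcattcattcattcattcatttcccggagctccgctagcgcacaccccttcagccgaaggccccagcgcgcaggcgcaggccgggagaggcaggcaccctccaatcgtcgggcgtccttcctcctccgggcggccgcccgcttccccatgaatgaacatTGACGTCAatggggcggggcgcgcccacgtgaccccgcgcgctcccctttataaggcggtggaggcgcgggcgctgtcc
In CGA the CREs began 142 and 124 bases before the start, in DUSP1 125, in AREG 65, in MAFF 54 and in VGF 79 bases before it. VGF, a neuropeptide precursor, fell by 0.81 on the log2 scale, a call that was lost with DESeq2 (adjusted p = 0.057) and without day 2 replicate 1, day 2 replicate 2 or day 5 replicate 2 (edgeR adjusted p up to 0.11). The letters describe these windows only and show no binding, and a CRE stood in front of genes that went up and of genes that went down.

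The enzymes that make and break down cAMP changed in part. Among adenylyl cyclases, protein kinase A and EPAC genes, 10 of 24 tested genes were higher and 6 lower at day 5 (median 0.23). ADCY3, an adenylyl cyclase, rose from 106 and 113 CPM to 380.4 and 381 CPM, while ADCY9, the isoform known as least sensitive to forskolin, fell from 129.9 and 130.2 CPM to 30.2 and 27.3 CPM. The kinase anchor AKAP12 rose from 117 and 117 CPM to 469 and 468 CPM, and the CREB coactivators CRTC1 and CRTC3 rose by 1.37 and 1.26 on the log2 scale. CREB1 itself was not called (means of 25.2 CPM at day 2 and 27.1 CPM at day 5, log2 fold change 0.10 ± 0.09). The EPAC gene RAPGEF4 fell from 7.98 to 1.61 CPM.

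Of 14 tested cAMP phosphodiesterases 7 were higher and 7 were not called (median 0.18). With limma-voom, without day 2 replicate 1 or without day 5 replicate 2, 1 was lower, and 2 were lower with no filter on low counts. PDE3A, which cAMP-raising drugs for heart failure target, went from 3.58 and 2.42 CPM at day 2 to 121 and 117 CPM at day 5, or 5.32 ± 0.10 on the log2 scale (edgeR, adjusted p = 1.9e-17). PDE10A, best known from striatal neurons, stood at 3.79 and 4.87 CPM and then at 95.5 and 104 CPM. PDE4D, the target of rolipram-type inhibitors together with its relatives, rose from 19.8 and 18.2 CPM to 95.2 and 88.00 CPM, and PDE7B from 41.1 to 122 CPM. For each of these 4 genes both day 5 libraries lay above both day 2 libraries, as they did for 41.0% of all tested genes. PDE4B, PDE3B and PDE7A were not called, with mean levels of 59.9 to 60.9 CPM, 8.42 to 8.07 CPM and 19.2 to 17.5 CPM from day 2 to day 5.

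The insulin-like growth factor (IGF) axis held the largest single gain in counts. IGF binding proteins carry IGFs outside the cell and set how much reaches the receptor. IGFBP5 (ENSG00000115461, chromosome 2 at 216672105 to 216695525 of GRCh38) went from 3687 and 3689.6 CPM at day 2 to 113097 and 113084 CPM at day 5, or 4.94 ± 0.0085 on the log2 scale (edgeR, adjusted p = 4.7e-32). It took up 0.355% of the counts in each day 2 library and 10.7% in each day 5 library. Its neighbour IGFBP2 (chromosome 2 at 216632828 to 216664436) rose from 4.21 and 3.91 CPM to 296 and 294 CPM. IGFBP3 (chromosome 7 at 45912245 to 45921874) rose from 128 and 127 CPM to 19671 and 19535 CPM, a 154-fold change, and IGFBP1, its neighbour on that chromosome, from 0.170 to 5.44 CPM. These 4 binding proteins were far apart between the days, with no overlap of libraries. Both day 5 libraries were above both day 2 libraries in 41.0% of all tested genes. Leaving IGFBP5 out and scaling again gave 5242 genes higher and 5533 lower.

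The other binding proteins fell. IGFBP4 went from 8236 and 8463 CPM to 3382 and 3512 CPM, IGFBP7 from 607 to 142 CPM and IGFBP6 from 194 to 33.98 CPM. The ligand IGF1 had no counts at day 2 and stood at 6.96 and 5.51 CPM at day 5, at least 105-fold higher, while the fetal ligand IGF2 fell from 4.46 to 1.96 CPM. On the receptor side, IGF1R rose from 67.01 and 61.8 CPM to 119 and 118 CPM and the docking protein IRS2 from 13.3 and 13.8 CPM to 52.3 and 54.1 CPM. PAPPA, a protease that cuts IGFBP4, fell slightly, from 794 to 650.3 CPM, and STC2, which inhibits it, from 103 to 23.4 CPM. Over the whole list, 10 of 17 tested genes were higher and 6 lower at day 5 (median 0.60).

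**Figure D3:**
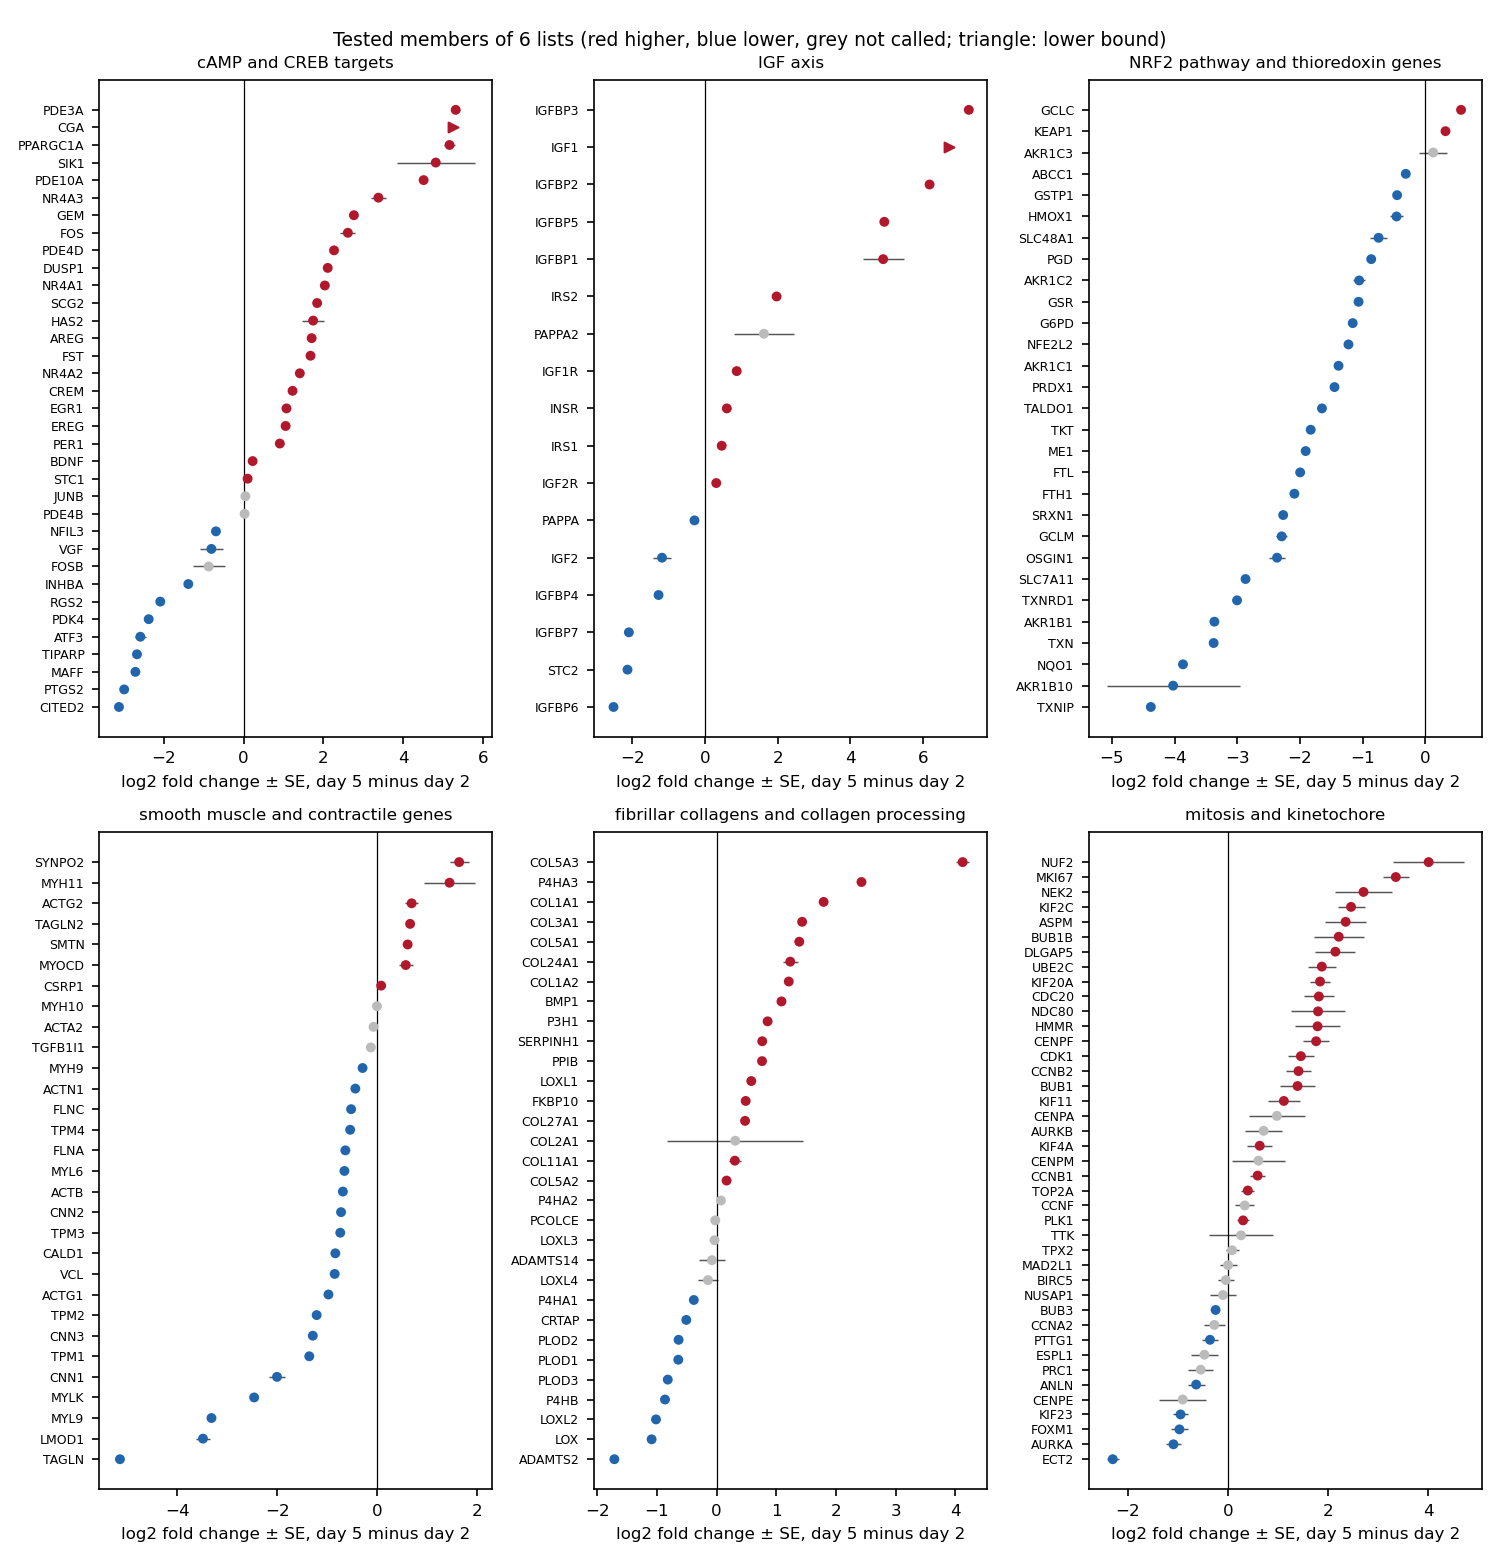
Log2 fold change ± SE (day 5 minus day 2) of each tested member of 6 lists, with members called higher in red, lower in blue and not called in grey; triangles stand for genes with no counts at day 2, drawn at their lower bound. In the cAMP panel 22 of 35 lie on the higher side and are called, and in the NRF2 and thioredoxin panel 26 of 29 are called on the lower side.

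Among the 12 largest rises were secreted matrix proteins, adhesion molecules and receptors. SSTR2, a somatostatin receptor that couples to inhibition of adenylyl cyclase, went from 1.54 and 0.930 CPM at day 2 to 576 and 561 CPM at day 5, or 8.86 ± 0.08 on the log2 scale (edgeR, adjusted p = 1.5e-21). ADRA2C, an adrenoceptor that couples the same way, rose from 0.0997 to 14.2 CPM. SMOC1, a calcium-binding matrix protein, rose from 1.46 and 1.27 CPM to 457 and 453 CPM, and ABI3BP, a matrix protein that binds collagen, from 0.375 and 0.298 CPM to 202 and 202 CPM. PTPRD, a receptor phosphatase that acts at synapses, rose from 0 and 0.149 CPM to 55.4 and 55.1 CPM, and OLFML2B, a secreted olfactomedin protein, from 0.0811 to 31.8 CPM. APCDD1, an inhibitor of WNT signalling, had 1 count at day 2 and 952 at day 5, a ratio of 1385 (248 to 54743) with its exact 95% counting interval. BRINP3 rose from 0.0997 to 25.2 CPM, COL21A1, a collagen, from 0.218 to 50.1 CPM and the sterol transporter ABCG1 from 0.123 to 14.1 CPM.

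The genes with the largest falls included secreted inhibitors and signalling ligands. DEPP1, a FOXO target, fell from 143 and 146 CPM to 0.240 and 0.273 CPM, or -9.11 ± 0.12 on the log2 scale (edgeR, adjusted p = 1.5e-19). DLL4, a NOTCH ligand, fell from 119 and 120.5 CPM to 0.660 and 0.819 CPM. SERPINB2, an inhibitor of plasminogen activators, fell from 482 and 474 CPM to 6.30 and 6.39 CPM. The libraries of the 2 days were far apart for all 3. GREM1, a secreted BMP antagonist, fell from 823 and 799 CPM to 14.9 and 14.8 CPM, and NPTX1, a neuronal pentraxin, from 374 and 382 CPM to 6.24 and 7.92 CPM. WFDC1, IL24, P2RY1, PSG5, INSC, IFI30 and CD163L1, the others of the 12 largest falls, had log2 fold changes from -6.50 to -5.53.

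Receptors for growth factors and the genes of their ligands had 17 higher and 17 lower of 39 tested (median -0.05), and more than 2-fold 15 were higher and 5 lower. PDGFRA, the receptor that marks many fibroblasts, rose from 569 and 571 CPM to 2673 and 2609 CPM, or 2.21 ± 0.02 on the log2 scale (edgeR, adjusted p = 1.5e-21). PDGFRB, its relative, rose from 151 to 470.3 CPM, the FGF receptors FGFR1 and FGFR4 from 323 to 811 CPM and from 18.4 to 108 CPM, and the VEGF receptor KDR from 8.21 to 61.8 CPM. Of the ligands, FGF10 rose from 2.50 and 2.57 CPM to 53.9 and 56.8 CPM, NRG1 from 398 to 1061 CPM, VEGFA from 143 to 376 CPM and the receptor kinase ligand HGF from 785 to 1159 CPM. GDNF, a survival factor for neurons, fell from 87.5 and 81.7 CPM to 3.18 and 4.09 CPM, and FGF7 from 396 and 384 CPM to 57.3 and 60.3 CPM. Thus FGF10 and FGF7, which signal through the same receptor isoform, moved in opposite directions.

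Of TGF-beta and BMP genes, 12 of 33 tested genes were higher and 16 lower at day 5 (median -0.11). Among all tested genes the shares were 32.1% and 33.7%. By more than 2-fold, 9 of the list were higher and 7 lower. The ligand TGFB3 rose from 1.25 and 0.893 CPM to 38.9 and 39.4 CPM, BMP6 from 0.548 to 16.4 CPM and the activin antagonist FST from 267 to 854 CPM. BMP2 fell from 339 and 343 CPM to 26.9 and 28.9 CPM, and INHBA, which encodes the activin A subunit, from 293 to 112 CPM. ID1, ID2, ID3 and ID4, which BMP signalling induces, all rose, by 1.16, 1.24, 1.15 and 3.34 on the log2 scale.

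In the WNT and NOTCH list, 17 of 31 tested genes were higher and 9 lower at day 5 (median 0.51). HEY1, a NOTCH target, rose from 0.833 and 0.967 CPM to 28.9 and 30.2 CPM, HES1 from 1.20 to 4.98 CPM and the ligand JAG1 from 38.8 and 37.6 CPM to 175 and 167 CPM, against the fall of DLL4. The WNT ligands WNT2 and WNT2B rose from 0.438 to 18.8 CPM and from 6.23 to 48.5 CPM, and AXIN2, a feedback target of canonical WNT signalling, from 4.21 to 13.4 CPM. WNT16 fell from 439.5 and 444 CPM to 58.8 and 58.7 CPM, NKD2 from 37.4 to 2.80 CPM and DKK3, a member of the Dickkopf family, from 2964 to 833 CPM.

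Of inflammatory genes, 8 of 24 tested genes were higher at day 5, near the 32.1% of all tested genes. The other calls were 15 lower, against 33.7% of all tested genes (list median -0.45). IL1B, a proinflammatory cytokine, fell from 313 and 315 CPM to 49.1 and 46.6 CPM, or -2.72 ± 0.04 on the log2 scale (edgeR, adjusted p = 6.9e-19). CXCL8, which attracts neutrophils, fell from 263 and 247 CPM to 14.9 and 14.8 CPM, and SOD2, the mitochondrial superoxide dismutase and an NF-kB target, from 1848 and 1836 CPM to 219 and 206 CPM. IL24 fell from 118 to 2.17 CPM. Not all cytokines followed. IL11, a cytokine of the IL6 family, rose from 14.3 and 16.3 CPM to 128 and 135 CPM, LIF from 480.1 to 987 CPM and the monocyte chemokine CCL2 from 72.5 to 183 CPM. In prostaglandin synthesis and response, 4 of 13 tested genes were higher and 8 lower at day 5 (median -0.40). PTGS1 and PTGFR fell with PTGS2, whereas PTGES, which makes prostaglandin E2, rose from 73.3 to 146 CPM and PTGER4, a receptor for it that raises cAMP, from 7.44 to 39.2 CPM.

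Interferon-stimulated genes were more often lower than higher, and 2 of 33 tested genes were higher and 19 lower at day 5 (median -1.40). MX1, an antiviral GTPase, went from 488 and 504 CPM at day 0 through 10.6 and 10.6 CPM at day 2 to 1.26 and 1.31 CPM at day 5. IFI6, an interferon-induced mitochondrial protein, fell from 74.7 and 75.8 CPM to 12.8 and 12.6 CPM, or -2.57 ± 0.05 on the log2 scale (edgeR, adjusted p = 3.1e-17). ISG15, a ubiquitin-like modifier, fell from 63.7 to 24.1 CPM and IFITM1 from 194 to 54.2 CPM. IFIT1, an RNA-binding antiviral protein, rose from 12.1 to 30.6 CPM. All 16 tested genes of HLA class I antigen presentation were lower (median -1.14). HLA-E fell from 702 and 722 CPM to 263 and 263 CPM, HLA-C from 1235 to 494 CPM, HLA-B from 886 to 387 CPM and the light chain B2M from 2643 to 1658 CPM. Reads of the HLA genes can be shared among near-identical copies, so their split is uncertain.

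Genes of the NRF2 antioxidant pathway and of the thioredoxin system, listed together, were mostly lower at day 5. In this list, which holds TXNIP and is not limited to genes that NRF2 controls, 2 of 29 tested genes were higher and 26 lower (median -1.65). More than 2-fold, 19 fell. NQO1, a quinone reductase, went from 2753 and 2753 CPM at day 2 to 192 and 186 CPM at day 5, or -3.87 ± 0.02 on the log2 scale (edgeR, adjusted p = 8.3e-25). TXNRD1, the thioredoxin reductase, fell from 1459 and 1445 CPM to 179.7 and 182 CPM, its substrate TXN from 521 and 511 CPM to 49.5 and 49.8 CPM, and the aldose reductase AKR1B1 from 2085 to 202 CPM. The ferritin chains FTH1 and FTL fell from 7628 to 1793 CPM and from 12724 to 3187 CPM, and the cystine transporter SLC7A11 from 283 to 38.7 CPM. NFE2L2, which encodes NRF2, fell from 167 to 71.4 CPM, and its inhibitor KEAP1 rose from 73.1 to 91.5 CPM. TXNIP, which binds thioredoxin and limits glucose uptake, fell from 2686 and 2674 CPM to 126 and 132 CPM. GCLC, the catalytic subunit of glutathione synthesis, rose from 85.9 to 127 CPM, while its partner GCLM fell from 42.8 to 8.74 CPM.

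**Figure D4:**
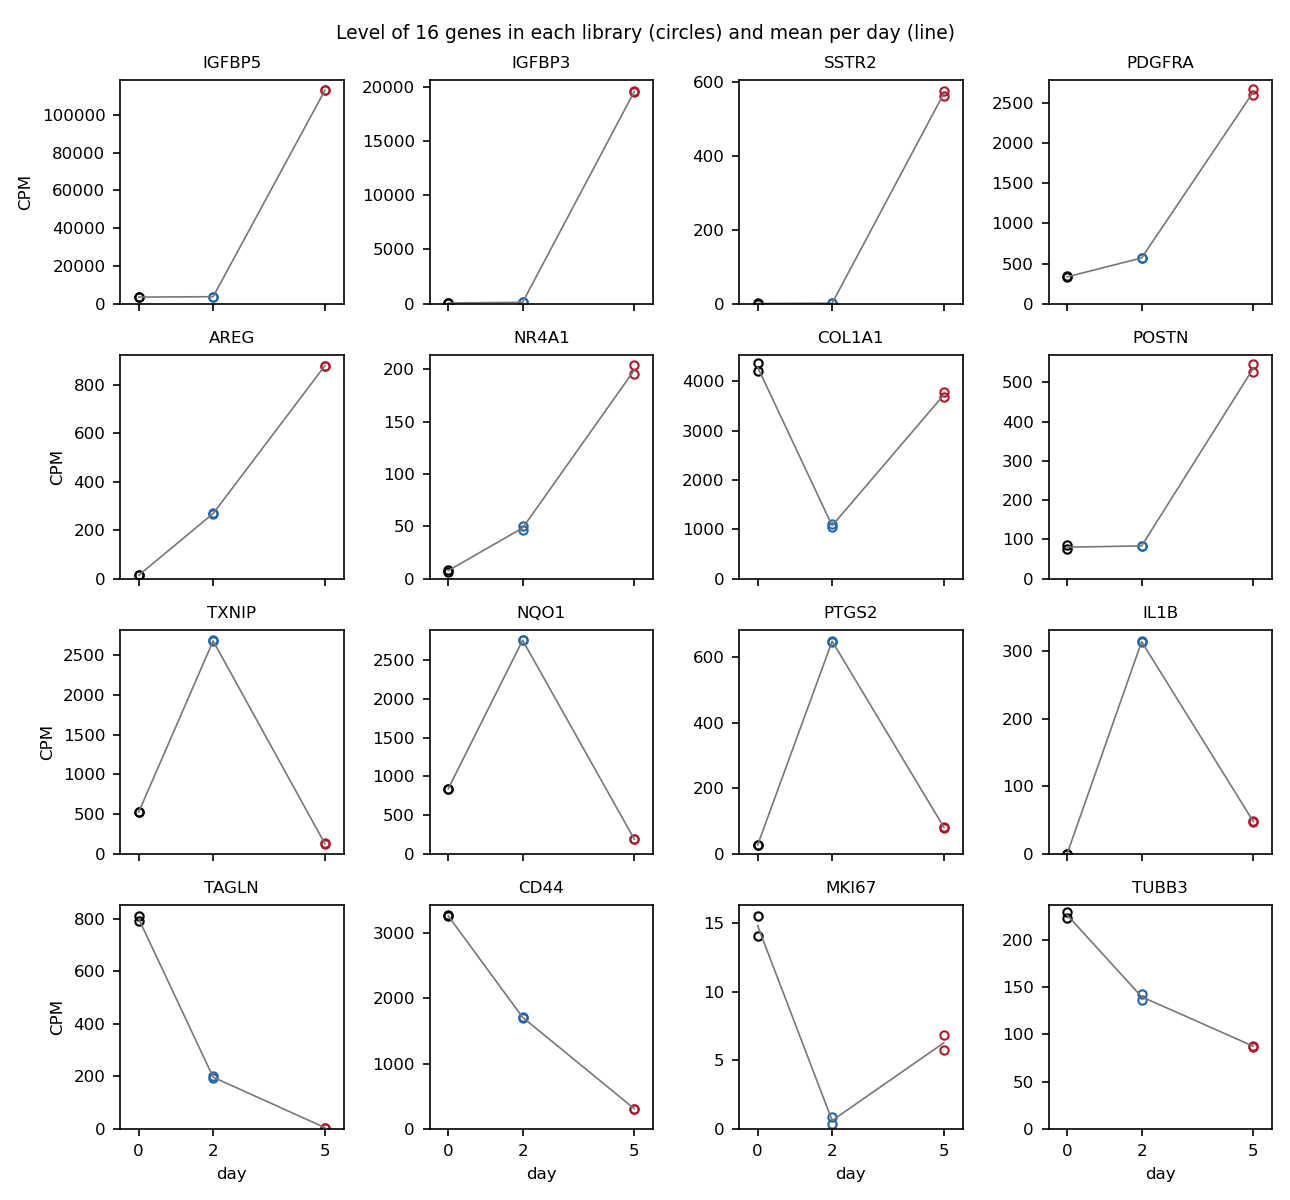
Level of 16 genes in each library (circles, CPM, linear axes from 0) at day 0 (black), day 2 (blue) and day 5 (red), with the mean per day as a line. IGFBP5, IGFBP3 and SSTR2 were highest at day 5 by a wide margin, TXNIP, NQO1, PTGS2 and IL1B were highest at day 2, and COL1A1 was lowest at day 2.

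TXNIP, SOD2, PDK4 and DEPP1 are also targets of FOXO factors, and of that list 6 of 24 tested genes were higher and 14 lower at day 5 (median -0.38). IRS2 and PIK3R1, 2 others of the list, rose by 1.97 and 1.09 on the log2 scale. Glycolysis and hypoxia genes were mostly lower (6 higher and 20 lower of 29 tested, median -0.38). HK2, the inducible hexokinase, fell from 75.4 and 73.4 CPM to 12.7 and 11.9 CPM, ADM, a vasodilator peptide induced by hypoxia, from 493 and 484 CPM to 36.4 and 32.97 CPM, and HIF1A, the hypoxia factor, from 663 to 355 CPM. VEGFA, another hypoxia target, rose. The fatty acid and pyruvate dehydrogenase list had 11 higher and 20 lower of 40 tested (median -0.30). PLIN2, the coat protein of lipid droplets, fell from 548 and 533 CPM to 47.9 and 44.5 CPM, and PDP1, the phosphatase that activates pyruvate dehydrogenase, rose from 13.2 and 11.1 CPM to 44.8 and 45.7 CPM, opposite to the kinases PDK4 and PDK1. In sterol synthesis, 7 of 29 tested genes were higher and 19 lower at day 5 (median -0.52). INSIG1 fell from 89.4 to 18.4 CPM and MSMO1 from 113 to 26.5 CPM, whereas SREBF1, the regulator of fatty acid synthesis, rose from 34.9 to 154 CPM and ABCA1, which exports cholesterol, from 119 to 229.7 CPM.

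Genes of protein breakdown and of the ribosome were more often lower than higher, with small medians. Of lysosomal genes, 8 of 41 tested genes were higher and 29 lower at day 5 (median -0.45), among them the cathepsins CTSK (482 to 98.1 CPM) and CTSD (1274 to 306 CPM). Of proteasome subunits, 5 of 34 tested genes were higher and 23 lower at day 5 (median -0.23), and of cytosolic ribosomal proteins, 3 of 48 tested genes were higher and 39 lower at day 5 (median -0.22). RPL3, a core protein of the large subunit, changed by -0.06 ± 0.02. Ribosomal protein genes have many pseudogenes that share their reads. Mitochondrial ribosomal proteins (16 higher and 10 lower of 41 tested, median 0.08) and nuclear-encoded respiratory chain subunits (22 higher and 16 lower of 49 tested, median 0.04) were split.

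Transcripts of the mitochondrial genome went both ways. The 13 mRNAs were all higher (median 0.88), for example MT-ND2 (744 and 726 CPM, then 2119.9 and 2070.1 CPM) and MT-CYB (1137 and 1120.1 CPM, then 2649.6 and 2591 CPM), both parts of the respiratory chain. Both ribosomal RNAs were lower, MT-RNR1 going from 2373 and 2320.02 CPM to 809 and 813 CPM and MT-RNR2 from 10308 and 9966 CPM to 5272 and 5098 CPM. Mitochondrial ribosomal RNA made up 1.22% and 1.18% of the counts at day 2 and 0.576% and 0.561% at day 5, and the other mitochondrial genes 2.81% and 2.74%, then 4.74% and 4.61%.

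Contractile genes were mostly lower, and 7 of 30 tested genes were higher and 20 lower at day 5 (median -0.64). TAGLN, an actin-binding protein of contractile cells, went from 193 and 202 CPM at day 2 to 5.64 and 5.51 CPM at day 5, or -5.15 ± 0.06 on the log2 scale (edgeR, adjusted p = 1.5e-20). MYL9, a myosin light chain, fell from 458 and 454 CPM to 46.5 and 45.3 CPM, and its kinase MYLK from 1225 and 1232 CPM to 226 and 220.3 CPM. ACTA2, smooth muscle actin, was not called, with 68.1 and 68.4 CPM, 65.6 and 64.5 CPM and a log2 fold change of -0.07 ± 0.05. The cytoplasmic actins ACTB and ACTG1 fell from 2693 to 1676 CPM and from 2475 to 1261 CPM. ACTA2 is the gene most used as a marker of the contractile state.

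Targets of YAP and SRF, which respond to tension in the actin cytoskeleton, showed 8 higher and 18 lower of 28 tested (median -0.68). F3, the coagulation tissue factor, fell from 2403 and 2378 CPM to 81.8 and 84.3 CPM, THBS1, a matricellular protein, from 3194 and 3226 CPM to 246 and 239 CPM, and CCN1 from 346 and 353 CPM to 23.8 and 23.6 CPM. CCN2, a target of the same factors, rose from 678 and 699 CPM to 1314 and 1319 CPM. CCN1 and CCN2, close relatives that are often read as a pair, were therefore apart, with CCN1 lower and CCN2 higher in both day 5 libraries.

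Surface and cytoskeletal genes of fibroblasts were mostly lower. In the surface and identity list, 4 of 20 tested genes were higher and 15 lower at day 5 (median -1.59). CD44, the hyaluronan receptor, fell from 1713 and 1699.8 CPM to 307 and 313 CPM, or -2.46 ± 0.02 on the log2 scale (edgeR, adjusted p = 5.6e-23), and VIM, the intermediate filament of mesenchymal cells, from 5049.8 and 5038 CPM to 1458 and 1474 CPM. The annexins ANXA1 and ANXA2 fell from 203 to 14.7 CPM and from 1455 to 395 CPM, S100A6 from 1085 to 158 CPM, the peptidase MME from 334 to 17.5 CPM and THY1 from 210.5 to 104 CPM. PDGFRA, PDGFRB, DDR2 and LRP1 were the 4 that rose.

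Fibrillar collagens and their processing enzymes had 16 higher and 9 lower of 31 tested (median 0.31). COL1A1, a chain of type I collagen, went from 1047 and 1105 CPM at day 2 to 3676 and 3775 CPM at day 5, or 1.79 ± 0.02 on the log2 scale (edgeR, adjusted p = 7.7e-20), with 4206 and 4363 CPM at day 0. COL1A2 rose from 6202 to 14326 CPM, COL3A1 from 2387 to 6441 CPM and COL5A3 from 2.92 and 3.42 CPM to 55.6 and 55.2 CPM. The prolyl hydroxylase subunit P4HA3 rose from 110.5 to 593 CPM. The crosslinking enzymes LOX and LOXL2 and the lysyl hydroxylases PLOD1, PLOD2 and PLOD3 fell by 0.64 to 1.09 on the log2 scale.

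In basement membrane and network collagens, 11 of 30 tested genes were higher and 17 lower at day 5 (median -0.31). Among all tested genes the shares were 32.1% and 33.7%. By more than 2-fold, 7 of the list were higher and 5 lower. COL4A1 and COL4A2, the main chains of type IV collagen, fell from 1863 to 741 CPM and from 2913 to 1111 CPM, while COL4A5 and COL4A6 rose from 595 to 989 CPM and from 198 to 608 CPM. COL18A1, the source of endostatin, rose from 405 and 430.1 CPM to 2369 and 2453 CPM, and LAMA3, an epithelial laminin chain, fell from 6.13 to 0.368 CPM. Proteoglycans, elastic fibre and matricellular genes had 19 higher and 12 lower of 31 tested (median 0.50). POSTN, a matricellular protein, rose from 84.00 and 83.3 CPM to 545 and 526 CPM and FBLN1 from 207 to 1237 CPM, and VCAN, a large proteoglycan, from 706 to 1476 CPM. FBLN5 and LTBP2, elastic fibre proteins, fell from 113 to 14.9 CPM and from 154 to 21.8 CPM. Matrix proteases and inhibitors had 12 higher and 12 lower of 25 tested (median 0.14), with 3 higher and 7 lower by more than 2-fold. ADAMTS4, an aggrecanase, rose from 7.70 and 7.78 CPM to 239.96 and 259 CPM, the collagenase MMP1 fell from 1652 and 1649 CPM to 399.6 and 395 CPM, and the urokinase gene PLAU fell from 1906 to 638 CPM while PLAT, the tissue plasminogen activator, rose from 1849 to 3059 CPM. TFPI2, a protease inhibitor, fell from 17541 and 17276 CPM to 11172 and 10989 CPM.

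**Figure D5:**
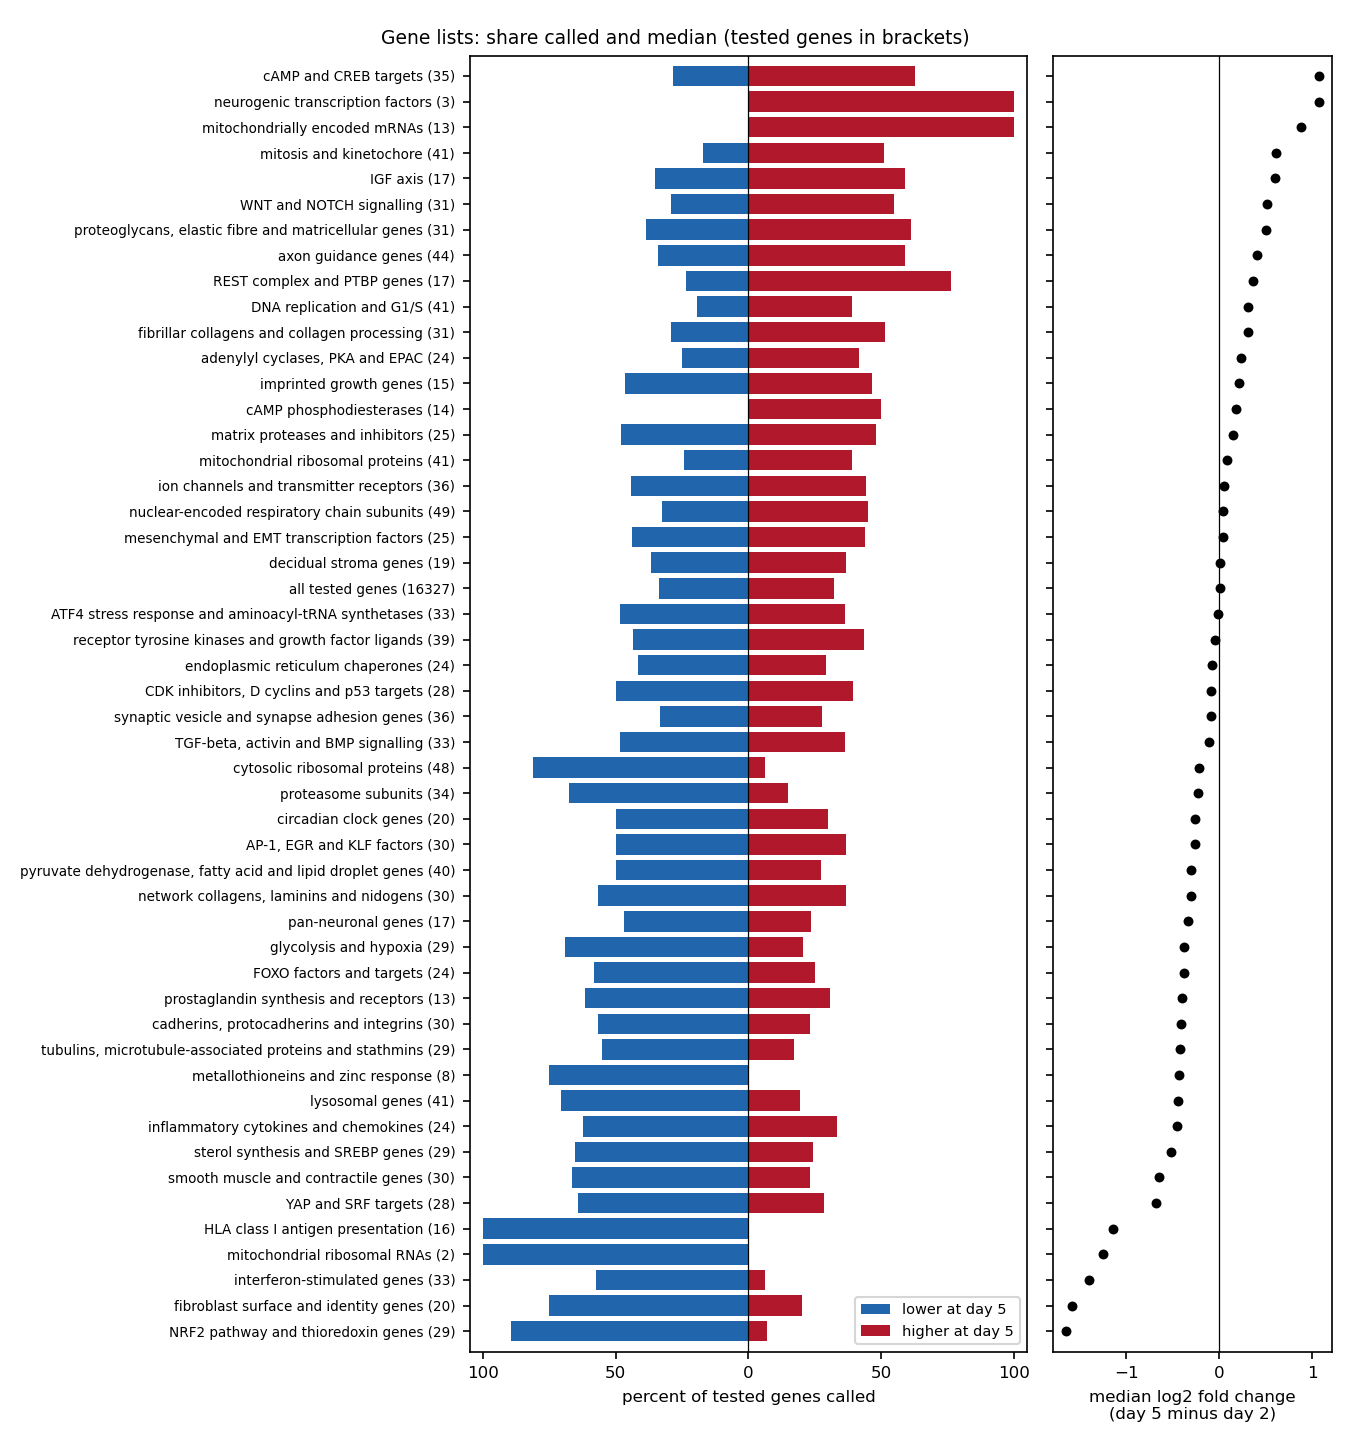
For each of 49 gene lists and all tested genes, the percent of tested genes called lower (blue, leftward) and higher (red, rightward) at day 5 and, at the right, the median log2 fold change; lists are ordered by the median. cAMP and CREB targets (median 1.07, as for 3 neurogenic transcription factors) lie at the top and NRF2 pathway and thioredoxin genes (median -1.65) at the bottom.

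Proliferation genes stood at low levels. Of mitosis and kinetochore genes, 21 of 41 tested genes were higher and 7 lower at day 5 (median 0.61), and of DNA replication genes, 16 of 41 were higher and 8 lower (median 0.31). Without day 2 replicate 1 the replication genes called higher were 10 in place of 16. More than 2-fold, 1 replication gene was higher and 4 were lower, and RRM1, a subunit of ribonucleotide reductase, fell from 61.3 and 60.2 CPM to 17.9 and 18.6 CPM. MKI67, a marker of dividing cells, went from 15.5 and 14.1 CPM at day 0 through 0.875 and 0.372 CPM at day 2 to 5.76 and 6.82 CPM at day 5, the last step being 3.36 ± 0.26 on the log2 scale (edgeR, adjusted p = 5.5e-09). Both day 5 libraries were above both day 2 libraries, as in 41.0% of all tested genes, and below both day 0 libraries. The rises were not general, since AURKA, FOXM1 and ECT2, which act in mitosis, fell by 1.09, 0.97 and 2.30 on the log2 scale. The promoter motif TTTGAA (the CHR element of mitotic genes) was in 24 of 33 mitotic promoters and in 10.0% of all, and CCAAT in 27 of 33 and in 36.4%, again both strands of the same window.

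Among inhibitors of the cell cycle, CDKN1A, a p53 target, fell from 3605 and 3681 CPM to 726 and 741 CPM, and CDKN1C, an imprinted inhibitor, rose from 26.2 and 27.5 CPM to 143 and 145 CPM. Cyclin D1 (CCND1), which drives exit from G1, fell from 1968 and 1962 CPM to 456 and 445 CPM. The list of these genes with p53 targets had 11 higher and 14 lower of 28 tested (median -0.09). Of other imprinted growth genes, DIRAS3, a growth-inhibiting GTPase, rose from 0.283 to 16.1 CPM, and PHLDA2, which limits placental growth, fell from 42.7 to 8.604 CPM.

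Neuronal gene groups had few tested members or were split. Of 31 pan-neuronal genes 17 could be tested, 4 higher and 8 lower (median -0.34). CHGB and SCG2, granins of secretory vesicles, rose from 0.6999 to 8.34 CPM and from 9.42 to 33.8 CPM, and SNAP25, a fusion protein of synapses, from 4.91 and 4.43 CPM to 16.9 and 19.8 CPM. UCHL1, a ubiquitin hydrolase abundant in neurons, fell from 539 to 211 CPM. Of 34 neurogenic transcription factors 3 could be tested, and all 3 rose: SOX4 from 202 and 197 CPM to 421 and 417 CPM, SOX11 from 12.9 and 11.5 CPM to 21.9 and 23.1 CPM and DLX1 from 0.253 to 1.51 CPM. REST, which represses neuronal genes outside neurons, fell from 34.8 and 34.5 CPM to 29.6 and 28.1 CPM, and PTBP1, the splicing repressor whose loss favours neuronal exons, rose from 233 and 239 CPM to 260.3 and 251 CPM. On the log2 scale these changes were -0.27 ± 0.07 and 0.12 ± 0.03, and that of PTBP1 was not called without day 2 replicate 1 or without day 5 replicate 1 (edgeR adjusted p up to 0.058).

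Tubulin and microtubule genes had 5 higher and 16 lower of 29 tested (median -0.42), with MAP1B, a protein of growing axons, falling from 281 and 284 CPM to 91.2 and 87.8 CPM and STMN3, a stathmin of neurons, rising from 7.64 to 26.2 CPM. In the synaptic list, 10 of 36 tested genes were higher and 12 lower at day 5 (median -0.09), with 6 higher and 4 lower by more than 2-fold. Its rises included TENM4, a teneurin of synapse adhesion (0.292 and 0.112 CPM, then 61.7 and 64.6 CPM), SYT7 (0.434 to 14.9 CPM) and FLRT2 (51.3 to 212 CPM). Among its falls was VAMP4, from 56.1 to 11.3 CPM. Ion channels and transmitter receptors were even, at 16 higher and 16 lower of 36 tested (median 0.05). CACNA1C, an L-type calcium channel, rose from 11.5 and 12.7 CPM to 165 and 174 CPM, and the sodium channel SCN9A fell from 39.2 and 38.3 CPM to 1.38 and 1.26 CPM. The GABA receptor subunit GABRA2 fell from 57.01 and 57.00 CPM to 4.32 and 3.44 CPM.

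Guidance and adhesion genes changed widely. Of axon guidance genes, 26 of 44 tested genes were higher and 15 lower at day 5 (median 0.40). The semaphorin receptors NRP1 and NRP2 rose from 37.4 and 41.9 CPM to 179 and 172 CPM and from 76.6 and 80.4 CPM to 341 and 326 CPM, and the netrin receptor UNC5B from 5.80 to 56.8 CPM. SEMA4D, a semaphorin, fell from 66.5 to 14.8 CPM. Cadherins, protocadherins and integrins had 7 higher and 17 lower of 30 tested (median -0.41), with 5 in each direction by more than 2-fold. CDH11, a cadherin of mesenchyme, rose from 38.2 and 36.3 CPM to 223 and 228 CPM and the large cadherin DCHS1 from 12.1 and 11.4 CPM to 281 and 301 CPM, while the main integrin beta chain ITGB1 fell from 2378 and 2354 CPM to 777 and 765 CPM and ITGA8 from 137 to 8.32 CPM.

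Transcription factors of mesenchyme had 11 higher and 11 lower of 25 tested (median 0.04), with 6 higher and 3 lower by more than 2-fold. PRRX1, a factor of limb and wound fibroblasts, rose from 18.2 and 19.05 CPM to 137 and 127 CPM, FOXC1 from 20.8 to 107 CPM and TWIST1 from 10.5 to 28.5 CPM, and ZEB1 fell from 253 and 247 CPM to 41.98 and 47.1 CPM while its relative ZEB2 rose from 45.2 to 71.4 CPM. AP-1, EGR and KLF factors had 11 higher and 15 lower of 30 tested (median -0.27). KLF4 rose from 3.24 to 30.1 CPM, FOS from 2.23 to 13.7 CPM and KLF6 fell from 202 to 44.3 CPM. Genes of the decidual stroma, a fibroblast state that cAMP induces in the uterus, had 7 higher and 7 lower of 19 tested (median 0.01), with IL11 and IGFBP1 higher and GPX3 lower (26.9 to 2.35 CPM). Of clock genes 6 of 20 tested genes were higher and 10 lower at day 5 (median -0.26), with 0 higher and 1 lower by more than 2-fold. ARNTL2 fell from 18.4 to 0.767 CPM, and PER1, a direct CREB target, rose from 16.9 to 31.8 CPM. Metallothionein and zinc genes had 0 higher and 6 lower of 8 tested (median -0.43).

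Secretory and stress genes were split. Chaperones of the endoplasmic reticulum had 7 higher and 10 lower of 24 tested (median -0.07), with HSP90B1 falling from 1342 to 729 CPM and HYOU1 rising from 198 to 355 CPM. ATF4 targets and aminoacyl-tRNA synthetases had 12 higher and 16 lower of 33 tested (median -0.02). CHAC1, which degrades glutathione, fell from 49.5 and 48.4 CPM to 2.28 and 2.02 CPM, and DDIT4, an inhibitor of mTORC1, rose from 23.99 and 24.8 CPM to 109.8 and 106 CPM.

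The table's own annotation gave 2153 terms of 20 to 300 tested genes, 1869 from Gene Ontology and 284 pathways. They were ranked by the median log2 fold change of their genes, with no test, and 679 medians were above 0 and 1473 below. The highest was calcium-dependent cell-cell adhesion, with 14 of 27 genes higher and 8 lower (median 0.82), which holds CDH11 and protocadherins such as PCDHB10 (1.60 to 6.57 CPM). Next came matrix constituents conferring tensile strength (21 of 30 higher, 7 lower, median 0.81), which is mostly collagen chains. Glycosaminoglycan binding (median 0.79), tissue homeostasis (0.75), respiratory gaseous exchange (0.73) and mammary gland development (0.71) followed. At the low end stood graft-versus-host disease (3 of 21 higher, 13 lower, median -1.20), made of HLA and interleukin genes, and keratinization (2 of 24 higher, 14 lower, median -1.05). Laminin binding (-0.86), the integrin complex (-0.74) and type I interferon signalling (10 of 51 higher, 31 lower, median -0.72) were also among the lowest. Among pathways, ferroptosis had 5 of 38 genes higher and 28 lower (median -0.55) and steroid biosynthesis 3 of 21 higher and 12 lower (median -0.52), and at the other end protein digestion and absorption, which contains the collagens, had 30 of 61 higher and 18 lower (median 0.43). Terms share genes, so these medians are not independent.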

How the data were processed

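The genome build is GRCh38, per the submitters' processing notes; for RNA enrichment, aligner, counting tool, annotation release and strand setting, nothing is given in the sources used here. Each value in the deposited table is an expected count; the counts are per gene, 87.2% of them whole, made by the authors and not scaled between libraries. They were rounded to whole numbers. Of 60843 genes, 172 without a name (0.0356% to 0.0475% of counts) were left out. edgeR 4.0.16 (R 4.3.3) fitted all 6 libraries by day (TMM factors, filterByExpr with a minimum count of 10 and a minimum total of 15, residual degrees of freedom 3), so that the days share 1 estimate of spread, and the contrast of day 5 minus day 2 was tested by quasi-likelihood and by glmTreat at 2-fold. The procedure was tested on simulated data in which 200 genes changed. That is far fewer than the 10746 called here, so the simulation does not show how the test behaves at this extent of change. Alternatives were DESeq2 1.42.0, limma 3.58.1 (voom), RLE factors, library totals, other filters, only 4 libraries, a replicate block, leaving out IGFBP5 and leaving out each library.

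The members and the 49 gene lists (1524 of 1526 entries matched) were chosen with earlier results of these data known. Each list is described by its counts and median with no set test. Genes were named by a rule, the 12 largest changes per direction with a mean of at least 5 CPM, up to 4 called members per list and a fixed set, 211 in all. The other genes named, among them most list members beyond the first 4, were picked after their values were seen. Genes of a list that fail the filter on low counts are not in its tested number. Promoters come from RefSeq (GRCh38.p14), and gene positions and types from GENCODE 29, joined by Ensembl identifier. The total counts per library, 17599457 to 27941895, set the precision of low levels, and a ratio's interval covers counting error only.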

Additional observations from a re-analysis of the deposited data

How the results depend on the processing

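Under the alternatives the number of genes higher at day 5 ranged from 4600 to 5263 and of genes lower from 5067 to 5864, with 864 to 1057 more than 2-fold higher and 1174 to 1400 more than 2-fold lower. DESeq2 gave 4600 higher and 5211 lower, limma-voom 5263 and 5450, and the 4 libraries alone 5180 and 5402. Leaving out 1 library gave 4632 to 5184 higher and 5067 to 5526 lower. The share of calls that were higher lay between 46.2% and 49.5%. Labels number the replicates alike on each day, and whether a number stands for a shared culture or batch is not given. Deviations of same-numbered libraries of day 2 and day 5 were not correlated (-0.0050 over 16327 genes). With libraries this close, counting error can hide a pairing, so this value does not exclude one. With the replicate block 5156 genes were higher and 5486 lower. Without IGFBP5 5242 were higher and 5533 lower. PDE4B, not called in any of these, turned to -0.013 on the log2 scale with no filter, and ranged from -0.048 to 0.079 when 1 library was left out. Of 735 list medians recomputed, 121 moved by more than the spread between libraries. Depth limits genes under a few counts per library, where only bounds or wide intervals can be given, and 2 libraries a day of unknown origin limit what the small errors say about other cultures.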

Other observations

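Some genes next to each other in the order of tested protein-coding genes changed in the same direction. Other genes can lie between such neighbours. Ordering the 13454 tested protein-coding genes with coordinates by position, 15 runs of at least 4 neighbours were more than 2-fold changed in the same direction, 5 higher and 10 lower, with 63 genes in all. The runs were chosen by their values and no test was made of how many would arise from unrelated genes. On chromosome 17 between 68535113 and 69244846 (GRCh38), FAM20A and the transporters ABCA8, ABCA9, ABCA6 and ABCA10 were higher; ABCA8 went from 2.49 to 58.9 CPM and ABCA6 from 2.59 to 13.6 CPM. On the same chromosome the chemokines CCL2, CCL7 and CCL11 were higher beside the channel ASIC2. CCL11 had 1 count over both day 2 libraries and 39 over both day 5 libraries, and ASIC2 had 3 and 125. On chromosome 11 the inflammatory caspases CASP1 and CASP4 and their regulator CARD16 were lower, CASP1 going from 92.3 to 12.4 CPM and CARD16 from 69.8 to 6.78 CPM. On chromosome 1 LCE2A, S100A6, S100A4 and S100A3 were lower, on chromosome 6 HLA-C, HLA-B, MICA and MICB, and on chromosome 18 SERPINB2 with SERPINB7, SERPINB8 and HMSD. S100A3 lies within the bounds of S100A4 on the same strand, so the split of their reads is uncertain. LCE2A, SERPINB7 and HMSD had only 46, 25 and 39 counts over both day 2 libraries and 0 at day 5. Such runs thus rest in part on genes near the floor. Protocadherin gamma genes, a further run that was higher, share exons, and FAM47E-STBD1 is a readthrough of STBD1, so counts within these runs are not separate. A shorter run, picked after its values were seen, was that of the receptor tyrosine kinases PDGFRA, KIT and KDR, neighbours on chromosome 4, with log2 fold changes of 2.21 ± 0.02, 1.97 ± 0.07 and 2.91 ± 0.09.

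Long intergenic and antisense RNAs had higher medians than protein-coding genes, with no test made of the difference. The median log2 fold change was 0.34 over 683 tested long intergenic RNAs and 0.27 over 903 antisense RNAs, against -0.03 over 13454 protein-coding genes. More than 2-fold changes were 7.03% higher and 5.42% lower for long intergenic RNAs, 5.20% and 3.77% for antisense RNAs, and 6.55% and 8.68% for protein-coding genes. RIPOR3-AS1, an antisense RNA, fell from 476 and 485 CPM to 0.420 and 0.546 CPM, beside RIPOR3 itself, which went from 1318 to 63.5 CPM; it was picked after its values were seen. The strand setting is not given in the sources used here, so reads of overlapping sense and antisense genes cannot be told apart.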
